A study of Caenorhabditis elegans with 2 samples.

Results

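The potassium channel genes of Caenorhabditis elegans in the twk, kvs, kqt, irk, kcnl, slo, shl and shk families were examined for binding of the transcription factor UNC-86 in L1 larvae. The genes were taken by symbol from the WBcel235 annotation, which gave 63 of 19973 protein-coding genes: 44 twk, 5 kvs, 3 kqt, 3 irk, 4 kcnl, 2 slo, 1 shl and 1 shk gene. The choice used symbols only, but it was made with earlier results of these data known. A gene was scored as bound at its promoter when the summit of a peak, its highest point, fell in a window that began 1500 bp before a 5' end of one of its transcripts and stopped 500 bp after it. A summit between the ends of the gene but outside every such window was scored as inside the gene.

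Chromatin immunoprecipitation and sequencing (ChIP-seq) was done on whole hermaphrodites of strain OP476, whose genotype is unc-119(tm4063) III with the transgene wgIs476. The transgene carries UNC-86 with a GFP tag at its C terminus, which one label calls eGFP and another GFP-FLAG, and the labels also conflict on the antibody: the descriptions state anti-GFP, while the antibody field reads unc-86. The larvae were collected 6 h after synchronization, which used starvation at the L1 stage following bleaching. There were 2 biological replicates of this single group, so no condition was compared with another. Every animal carried the same transgene and unc-119 allele, and a control named in the labels was not analysed here. UNC-86 is found in a small set of neurons, while the chromatin came from whole animals. Binding in few cells and weak binding in many cells cannot be told apart.

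Potassium channels let potassium leave the cell and so set the resting potential and end action potentials and other depolarisations. The twk genes encode tandem-pore (K2P) leak channels, a family that is much expanded in nematodes. The kvs, shk and shl genes encode voltage-gated subunits, among them the Shaker channel SHK-1 and the Shal channel SHL-1, and the kqt genes encode KCNQ channels. The irk genes encode inward rectifiers, the kcnl genes small-conductance calcium-activated channels, and slo-1 and slo-2 large-conductance channels. UNC-86 is a POU homeodomain protein that specifies several neuron classes, among them the touch receptor neurons, which it specifies with the homeodomain protein MEC-3, and the egg-laying neurons HSN. Channel genes are part of the terminal features by which such neuron classes differ.

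Few of these genes carried a strong UNC-86 peak. In the optimal list, the 2987 peaks that passed the authors' reproducibility procedure, 4 of 63 genes had a promoter summit (6.35%, exact 95% interval 1.76 to 15.5), against 13.1% of all protein-coding genes. These 4 were twk-2, twk-5, slo-2 and kcnl-2. One more gene, twk-48, had an optimal summit inside the gene. In the pooled list, a relaxed list of 20768 peaks that includes background, 28 of 63 genes had a promoter summit (44.4%, 31.9 to 57.5), against 41.8% of all protein-coding genes. The interval for the pooled list holds the share of all genes, and so does that for the optimal list. No test was made between these shares.

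Sequences are shown for the summits of 4 of the 5 optimal peaks, all but that of kcnl-2, and for kvs-3. Among the channel gene peaks outside the optimal list, the promoter peak of kvs-3 was the strongest. Each sequence is the 151 bases centred on the summit in the RefSeq WBcel235 genome (ce11 coordinates), 5' to 3' on the strand of the channel gene. Capitals mark matches to GAGAGA, to GCNNAGTGG and to GTTCNANNC on either strand, where N is any base. The windows of slo-2 and twk-48 held no such match, although the twk-48 window takes in part of a tRNA gene 32 bp from its summit. The letters of the last pair follow the A box and the B box, the internal promoter elements of tRNA genes. They were looked for after tRNA genes had been seen beside some summits. The window of twk-2 was chrII:4453595-4453745 on the minus strand, that of twk-5 chrII:11484752-11484902 on the minus strand, that of slo-2 chrX:11403948-11404098 on the minus strand, that of twk-48 chrIII:9861645-9861795 on the plus strand and that of kvs-3 chrV:9318184-9318334 on the plus strand.
twk-2: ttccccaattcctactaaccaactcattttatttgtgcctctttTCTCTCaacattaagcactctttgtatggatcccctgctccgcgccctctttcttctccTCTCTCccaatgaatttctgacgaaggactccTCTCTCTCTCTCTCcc
twk-5: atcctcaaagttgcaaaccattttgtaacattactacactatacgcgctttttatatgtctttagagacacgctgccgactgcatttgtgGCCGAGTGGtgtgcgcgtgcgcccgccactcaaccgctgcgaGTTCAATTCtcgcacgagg
slo-2: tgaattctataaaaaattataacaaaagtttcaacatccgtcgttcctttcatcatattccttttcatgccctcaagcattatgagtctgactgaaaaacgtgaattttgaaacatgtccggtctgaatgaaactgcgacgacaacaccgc
twk-48: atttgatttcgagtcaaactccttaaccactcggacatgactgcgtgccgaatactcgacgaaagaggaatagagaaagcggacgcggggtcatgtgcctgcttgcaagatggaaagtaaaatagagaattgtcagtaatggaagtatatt
kvs-3: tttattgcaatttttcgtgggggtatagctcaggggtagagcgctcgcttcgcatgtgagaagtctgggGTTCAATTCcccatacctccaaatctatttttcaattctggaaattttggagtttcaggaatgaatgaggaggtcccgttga

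The promoter peak of twk-2 was the strongest of the 63 genes. It lay at chrII:4453472-4453867, in intergenic sequence, with its summit 519 bp upstream of the single 5' end. This summit was also in the promoter window of the noncoding RNA gene T12C9.8. The authors' signal value, which ranks peaks within a list and has no stated scale, was 136, rank 1358 of the pooled list. The matching peak had a signal of 60.2 and rank 1361 in replicate 1, and 73.7 and rank 1428 in replicate 2. The gene had 4 further pooled summits inside it, with signals up to 27.6. The twk-2 window shown above was the only one of the 5 optimal windows with GAGAGA, a sequence within 75 bp of 36.3% of all optimal summits.

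twk-5 is a short gene of 2086 bp whose optimal peak lay inside its first intron. The peak, chrII:11484629-11485024, had its summit 473 bp downstream of the single 5' end, just within the promoter window. Its signal was 79.6, rank 2509 of the pooled list, with 36 and rank 2470 in replicate 1 and 41.8 and rank 2707 in replicate 2. The snoRNA gene B0334.12 is annotated 75 bp from this summit. The window held 1 match to GCNNAGTGG, found at 2.51% of optimal peaks, and 1 match to GTTCNANNC, found at 4.82%. Whether this peak belongs to twk-5 or to the small RNA gene cannot be told apart from the peak lists.

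slo-2 encodes a large-conductance potassium channel of neurons and muscle and has 7 annotated 5' ends. The optimal peak, chrX:11403825-11404220, had its summit in intron 2, 177 bp downstream of an internal 5' end and 16.8% along the gene. The signal was 89.0, rank 2232, with 41.0 and rank 2111 in replicate 1 and 50.1 and rank 2231 in replicate 2, so the ranks in both replicates were close. slo-2 had 5 pooled promoter summits. The next, 284 bp upstream of another internal 5' end, had a signal of 52.1, rank 3866. That weaker summit ranked 2575 in replicate 1, within its 2987 strongest peaks, and 9261 in replicate 2.

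kcnl-2, a gene of 33855 bp with 8 annotated 5' ends, encodes a small-conductance calcium-activated channel. Its optimal peak (chromosome I, 8195174 to 8195569) lay in intron 7, 687 bp upstream of an internal 5' end and 60.5% along the gene. The signal was 68.2, rank 2910, close to the lowest optimal signal of 66.4. The replicates differed in rank for this peak, with 38.4 and rank 2280 in replicate 1 and 29.3 and rank 3870 in replicate 2. By replicate 2 alone it would not be among the 2987 strongest. kvs-3, a voltage-gated channel gene, stood just outside the limit with a signal of 64.5, rank 3062. In that gene the order was the other way, with rank 3827 in replicate 1 and rank 2791 in replicate 2. None of the 4 optimal promoter summits lay in the promoter window of another protein-coding gene.

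The only optimal summit inside a channel gene and outside its windows was that of twk-48, in intron 5. The peak, chrIII:9861522-9861917, had a signal of 104, rank 1893, with 34.8 and rank 2570 in replicate 1 and 68.3 and rank 1558 in replicate 2. Its summit lay 990 bp downstream of the 5' end and 38.1% along the gene, within the noncoding RNA gene K11H3.9. A tRNA gene, WBGene00014445, is annotated 32 bp from it. The kvs-3 summit, 52 bp upstream of the kvs-3 5' end, lay within the tRNA gene WBGene00023049, and the GTTCNANNC match in its window is in that gene. The peak lists cannot separate binding at the channel gene from signal at the tRNA gene. A tRNA gene lay within 250 bp of 1 of the 5 optimal summits of these genes and a snoRNA gene of 1 other, against 3.48% and 2.24% of all optimal peaks.

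**Figure D1:**
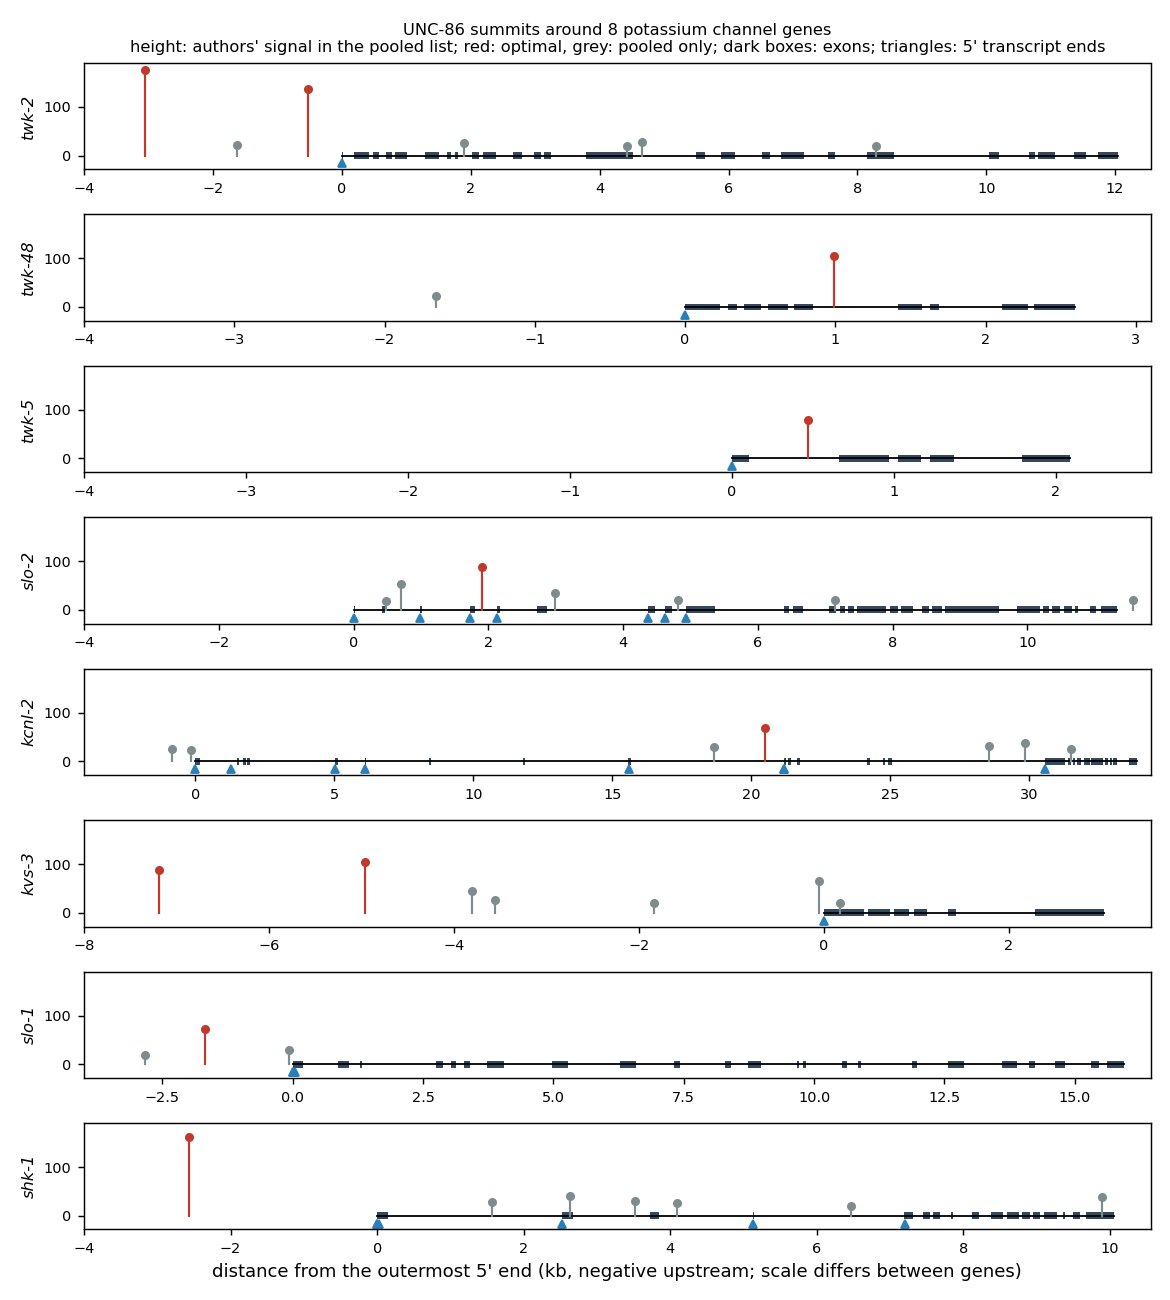
Summits around 8 potassium channel genes, by distance from the outermost 5' end in kb (negative upstream, gene drawn left to right) and with height as the authors' signal value in the pooled list. Red stems are optimal peaks and grey stems are in the pooled list only; dark boxes are exons and triangles 5' transcript ends. The optimal summits of twk-5, slo-2, kcnl-2 and twk-48 stand over introns, and those of slo-1, shk-1 and kvs-3 stand upstream of the promoter window.

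By family, the share of genes with a pooled promoter summit was lower among the twk genes than over the other 7 families combined. Of 44 twk genes 13 had a pooled promoter summit (29.5%, 16.8 to 45.2), against 15 of the 19 genes of the other 7 families (78.9%, 54.4 to 93.9). These intervals do not overlap. In this list the kqt family was close to twk, with 1 of 3 genes (33.3%, 0.840 to 90.6), and each of the remaining families stood higher. The 7 families hold only 1 to 5 genes each, so their single shares are uncertain. With only the outermost 5' end of each gene the shares were 20.5% (9.80 to 35.3) for twk and 52.6% (28.9 to 75.6) for the other families, and those intervals overlap. In the relaxed replicate lists the mean share was 40.9% ± 3.21 (SD, n = 2) for twk and 81.6% ± 3.72 (SD, n = 2) for the other families. There kqt was not close to twk, with 3 of 3 genes in replicate 1 and 2 of 3 in replicate 2. In the optimal list the shares were 4.55% (0.555 to 15.5), or 2 genes, and 10.5% (1.30 to 33.1), also 2 genes, and these intervals overlap widely. No test of the difference was made, because the genes of a family are not replicates.

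The families also differ in size, and this moved with the shares. The median length was 4629.5 bp for twk genes and 11893 bp for the other families, and the median sequence covered by promoter windows was 2001 bp against 4045 bp. Per 100 kb of window, twk genes had 13.3 pooled summits (exact Poisson 95% interval 7.77 to 21.4) and the other families 33.7 (23.2 to 47.3), against 25.6 for all genes. For protein-coding genes at least as long as the median channel gene the value was 32.0, close to that of the other families. The kqt genes, with 1 summit, had 9.12. The intervals of twk and of the other families together stay apart per length of window as well, although they cover counting error only and take summits as independent. Among genes with a single 5' end, 6 of 23 twk genes (26.1%, 10.2 to 48.4) and 3 of 4 others (75%, 19.4 to 99.4) had a pooled promoter summit. Over all protein-coding genes with 1 end the share was 36.2%. Among genes with 2 or more ends the counts were 7 of 21 (33.3%, 14.6 to 57.0) and 12 of 15 (80%, 51.9 to 95.7). Over all protein-coding genes of that class the share was 56.6%. Each of these intervals holds the share of all genes of its class.

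**Figure D2:**
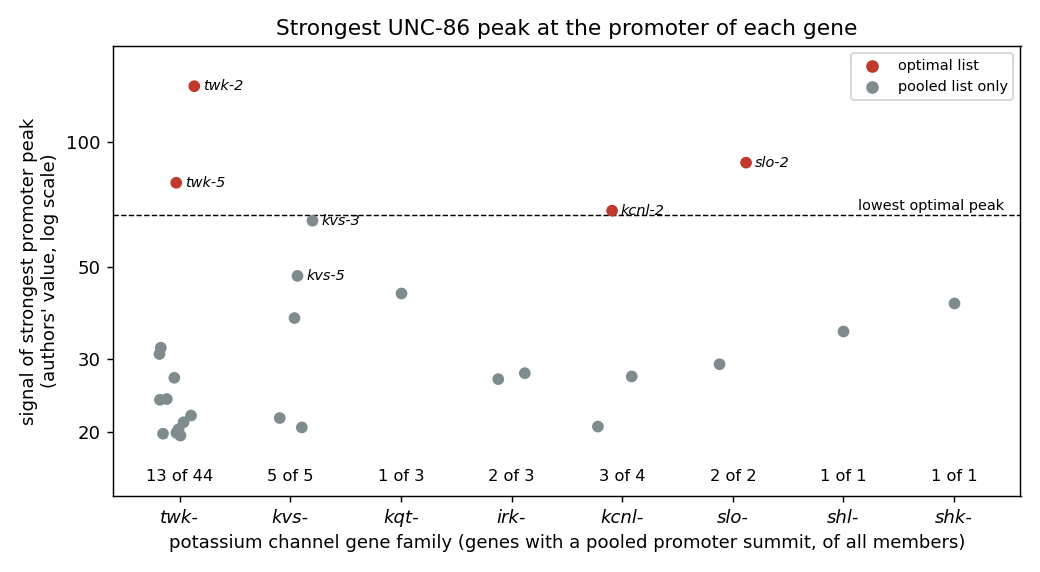
Signal of the strongest pooled promoter peak of each potassium channel gene that had one, by family, on a log axis; the numbers along the base give the genes with such a peak of all in the family. The 4 genes of the optimal list stand above the lowest optimal signal (dashed line, 66.4), kvs-3 lies just under it at 64.5, and apart from twk-2 and twk-5 the twk genes lie between 19.6 and 31.9.

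Within the voltage-gated families all 5 kvs genes had a pooled promoter summit and none an optimal one. After kvs-3, the signals were 47.5 at kvs-5 and 37.6 at kvs-1, whose channel carries an A-type current. The kvs-5 summit lay 1442 bp upstream of a 5' end, in intron 2, and replicate 1 had no peak there. shk-1, the Shaker gene, had 4 pooled promoter summits, the strongest at 40.8 and 114 bp downstream of a 5' end. shl-1, the Shal gene, had 1 with a signal of 34.9, 318 bp downstream of its 5' end. Both were found in both replicates, with signals of 17.7 and 23 at shk-1 and 15.8 and 16.2 at shl-1.

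Among the KCNQ genes only kqt-3 had a pooled summit, with a signal of 43.2 and 1348 bp upstream of its 5' end. This summit lay 139 bp from a 5' end of rpoa-1, which encodes a subunit of RNA polymerase, so it is shared between these genes. It was within the 2987 strongest peaks of replicate 1, at rank 2972, and at rank 18397 in replicate 2. kqt-1 and kqt-2 had no pooled summit at all. The inward rectifiers irk-3 and irk-1 had promoter signals of 27.7 and 26.8, and irk-2 had a summit inside the gene only. Of the small-conductance genes kcnl-1 and kcnl-3 had promoter signals of 27.2 and 20.6, and kcnl-4 had summits inside the gene only. At slo-1, which encodes the BK channel, the summit lay 73 bp upstream of a 5' end with a signal of 29.1.

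The remaining twk promoter peaks were weak. The strongest were those of twk-43 at 31.9, twk-10 at 30.8 and twk-45 at 27.0, all under the signal of 66.4 at which the optimal list ends. The twk-10 summit lay within the gene lipl-4 and 229 bp from a tRNA gene. Over the 28 genes with a pooled promoter summit the median of the strongest signal was 27.5, against 33.9 over all protein-coding genes with one. For the 4 genes with an optimal promoter summit the median was 84.3, against 147 over all genes with one. A promoter summit with a q value of 0.05 or less in the authors' list was found at 7 of 63 genes (11.1%), against 17.9% of all genes.

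In all, 18 genes had no pooled summit in a promoter window or inside the gene. They were kqt-1, kqt-2 and 16 twk genes, namely twk-1, twk-3, twk-6, twk-9, twk-11, twk-12, twk-18, twk-20, twk-22, twk-23, twk-24, twk-25, twk-30, twk-35, twk-40 and twk-47. Among them is twk-18, known for the paralysis that its gain-of-function alleles cause in body-wall muscle. The other 45 genes had a pooled summit in one place or the other (71.4%), against 52.8% of all protein-coding genes. Of these, 18 had one in both places, 17 only inside the gene and 10 only at a promoter. An optimal summit in either place was found at 5 genes (7.94%), against 14.5% of all protein-coding genes.

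Inside the genes, 35 of 63 had a pooled summit outside the promoter windows (55.6%, 42.5 to 68.1), against 25.2% of all protein-coding genes. The channel genes are long, with a median of 6083 bp against 2027 bp for all genes. Among the 2334 protein-coding genes of at least 6083 bp the share was 68.9%. In the optimal list the share was 1 of 63 (1.59%, 0.0402 to 8.53), against 2.01% of all genes and 11.4% of the long genes. For promoters, the same long genes had an optimal summit in 22.9% and a pooled summit in 62.2%. The stretch upstream to the next protein-coding gene had a median of 2844 bp in the channel genes and 937 bp in all genes. Among the 4802 protein-coding genes with at least 2844 bp there, 9.64% had an optimal promoter summit and 41.9% a pooled one.

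Per length of sequence the channel genes did not stand apart from all genes in the pooled list. The channel genes held 17.9 pooled summits per 100 kb inside the gene (14 to 22.6), and all genes 18.0. In promoter windows the values were 22.2 (16.5 to 29.3) and 25.6, so both intervals hold the value of all genes. The optimal list differed at promoters, with 1.78 summits per 100 kb of window in the channel genes (0.484 to 4.55) and 5.99 in all genes. The interval for the channel genes rests on 4 summits and lies under the value of all genes. Inside the genes the optimal values were 0.253 (0.00639 to 1.41) and 1.08.

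**Figure D3:**
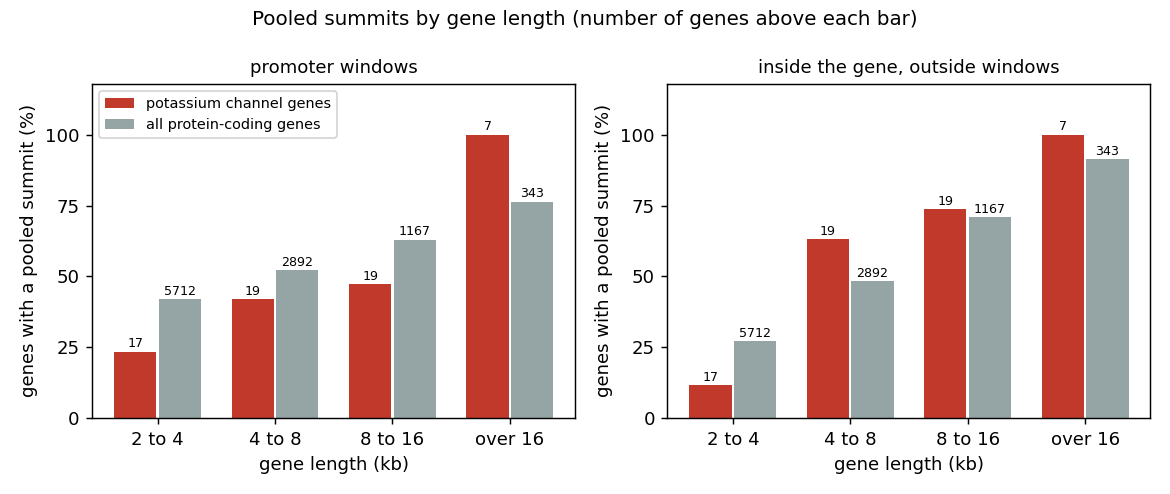
Share of genes with a pooled summit by gene length, for the potassium channel genes (red) and all protein-coding genes (grey), with the number of genes over each bar; left, promoter windows, right, inside the gene outside the windows. Both rise with length: 4 of 17 channel genes of 2 to 4 kb and all 7 over 16 kb had a promoter summit.

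In each bin of gene length from 2 to 16 kb a smaller share of the channel genes than of all genes had a pooled promoter summit. The shares were 23.5% and 42.1% from 2 to 4 kb, 42.1% and 52.3% from 4 to 8 kb, and 47.4% and 63% from 8 to 16 kb. All 7 genes over 16 kb had one, against 76.4% of genes of that length. Inside the genes the share was lower than that of all genes from 2 to 4 kb, at 11.8% and 27.2%, and higher in the longer bins. There it was 63.2% and 48.3% from 4 to 8 kb, 73.7% and 70.9% from 8 to 16 kb, and 100% and 91.3% over 16 kb. The bins hold 7 to 19 channel genes each, and the differences were not tested.

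The summits inside the genes were mostly intronic. Of 71 pooled summits there, 46 lay in an intron (64.8%) and 25 in an exon, and 11 of the 46 lay in a first intron. Over all protein-coding genes 51.5% of such summits were intronic, and the intronic part of the sequence itself was 70.7% in the channel genes and 54.2% in all genes. The genes with the strongest pooled-only summits inside them were twk-44 at 45.6, twk-49 at 43.4, twk-13 at 42.2 and twk-10 at 41.5, which were chosen for naming after their values were seen. This twk-49 summit also lay within the gene T28D9.1 and in the promoter window of T28D9.11, 1159 bp upstream, so it is shared between genes. twk-13 had the most, with 9 summits inside the gene and 4 in its promoter windows. At promoters, 31 of 50 pooled summits lay upstream of the nearest 5' end (62.0%, against 78.2% for all genes), and the median distance was 408 bp, against 380 bp.

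**Figure D4:**
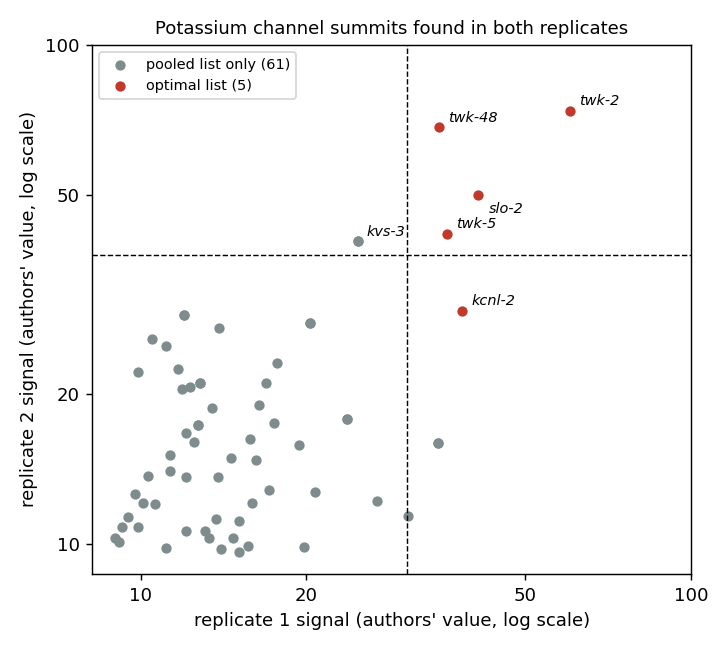
Signal in replicate 1 and replicate 2 of the 66 potassium channel summits that matched a peak in both relaxed lists, on log axes; red points are in the optimal list (5) and grey points in the pooled list only (61). Dashed lines mark the last of the 2987 strongest peaks, at 30.5 in replicate 1 and 37.8 in replicate 2. Of the optimal summits only that of kcnl-2 falls under a line.

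The replicates gave close counts at promoters and shared 3 of the 6 genes with a strong peak in either. Among each replicate's 2987 strongest peaks, 5 channel genes had a promoter summit in replicate 1 and 4 in replicate 2 (7.14% ± 1.12, SD, n = 2), against 12.8% and 13.2% of all protein-coding genes. twk-2, twk-5 and slo-2 were found in both, kcnl-2 and kqt-3 in replicate 1 only, and kvs-3 in replicate 2 only. In the relaxed lists the counts were 34 and 33, with 25 genes in both, against 53.5% and 46.9% of all genes. Of the 121 pooled summits of the channel genes, 66 matched a peak in both replicates (54.5%, against 62.6% of all pooled peaks), 31 in replicate 1 only and 21 in replicate 2 only, and 3 in neither.

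Several genes without an optimal promoter summit had one farther upstream. The stretch from 1500 bp upstream to the next protein-coding gene was looked at after the first values had been seen. Of 41 channel genes with such a stretch, 7 had an optimal summit in it (17.1%), against 11.5% of 7584 protein-coding genes. Pooled summits were found there at 15 of the 41 (36.6%), against 38.8%. Per 100 kb of this sequence the channel genes had 4.94 optimal summits and all genes 3.84.

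The strongest of these lay 9530 bp upstream of shl-1, with a signal of 350, rank 322, and signals of 147 and 210 in replicates 1 and 2. That summit is within the windows of piRNA genes, a class of small RNA genes that lie in dense clusters. At twk-2 a second optimal peak stood 3047 bp upstream with a signal of 175, more than the 136 of its promoter peak, and with 68.9 and 110 in the replicates. shk-1 had one 2564 bp upstream (signal 161, replicates 74.2 and 84.1). kvs-3 had one 4958 bp upstream (signal 104, replicates 44.5 and 58.5) and another 7184 bp upstream (86.9, replicates 45.7 and 36.5). The next protein-coding gene begins 7384 bp upstream of kvs-3 and 3308 bp upstream of shk-1. The farther kvs-3 summit is thus near that neighbour, though in no gene's promoter window. Which gene these upstream summits belong to was not tested. The slo-1 summit, 1688 bp upstream, had a signal of 72.7 and 39.2 and 39.8 in the replicates. The other two lay 1578 bp upstream of twk-21 (signal 114), 27 bp from a tRNA gene, and 5924 bp upstream of twk-12 (74.0), in the promoter window of sqv-4.

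**Figure D5:**
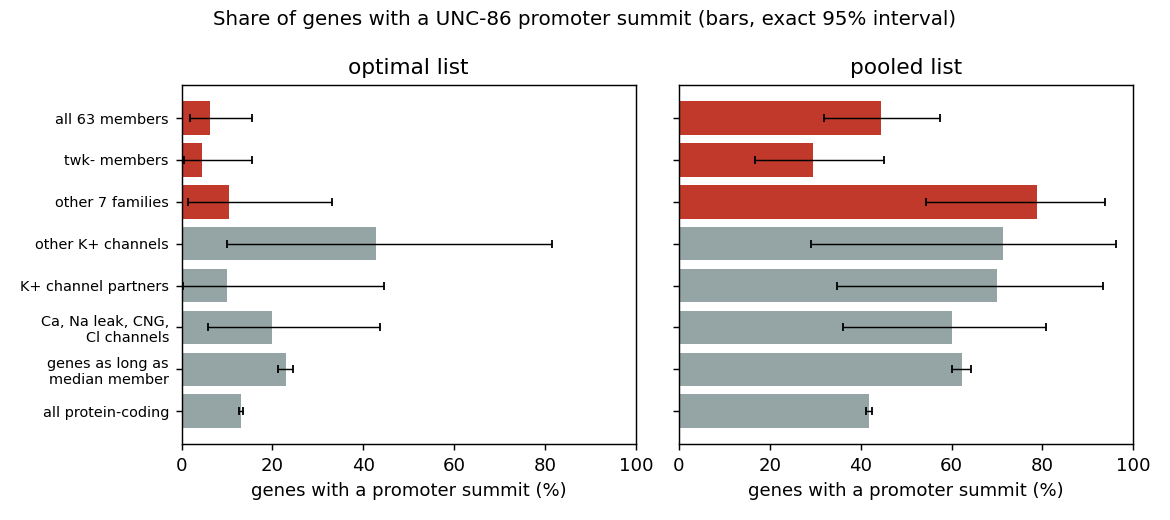
Share of genes with a promoter summit in the optimal list (left) and the pooled list (right), in percent, with exact 95% intervals as bars; potassium channel genes in red, other lists and all protein-coding genes in grey. The twk genes stand at 4.55% and 29.5%, the other 7 families at 10.5% and 78.9%, and all protein-coding genes at 13.1% and 41.8%.

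Channel genes outside these families were counted for comparison. Of 7 potassium channel genes with other symbols, 3 had an optimal promoter summit (42.9%, 9.90 to 81.6). These were unc-103, an ERG channel gene, with a signal of 116, unc-58, a tandem-pore channel gene, with 95.9, and egl-2, an EAG channel gene, with 69.8. Of 10 genes for partners of potassium channels 1 had an optimal promoter summit, ctn-1, an alpha-catulin gene that acts in the placement of SLO-1, with 107. Of 20 calcium, sodium leak, cyclic nucleotide-gated and chloride channel genes 4 had one (20%, 5.73 to 43.7). They were ccb-1, for a calcium channel beta subunit, at 216, the chloride channel gene clh-5 at 186, unc-36, for an auxiliary calcium channel subunit, at 151, and unc-80, for a subunit of the sodium leak channel complex, at 136. All of these intervals overlap that of the 63 genes, 1.76 to 15.5, and no test was made.

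Short sequences, among them sites of POU and homeodomain factors, were counted at these summits. None of the 5 optimal windows held AATGCAT, the core of the site that UNC-86 binds together with MEC-3, which was within 75 bp of 3.05% of all optimal summits. The octamer ATGCAAAT, the homeodomain core TAATTA and the E-box CACGTG were also in none of the 5, against 1.24%, 4.52% and 4.55% of all optimal summits. With shares this low, 5 windows are too few to show a difference. Among the 116 pooled summits outside the optimal list, AATGCAT was at 3 (2.59%, against 2.48% of all such peaks), those of twk-10, kcnl-1 and twk-13. TAATTA was at 10 (8.62%, against 6.88%), and GAGAGA at 8 (6.90%, against 12.3%). All were searched on both strands, and a match says only that the letters are there.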

How the data were processed

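Peak lists of UNC-86 ChIP-seq were analysed for 2 biological replicates of 1 group. The deposited columns used were the summit offset, the authors' signal value and the −log10 q value. Per the listing deposited with the files, each replicate's relaxed list came from its own alignment and a control, the pooled list from both alignments, and the optimal list from the irreproducible discovery rate procedure (IDR). Scaling of the deposited signal, like the IDR threshold, caller and aligner, was not given in the sources used here, and the −log10 q values are as deposited by the authors. All 2987 optimal peaks were the strongest of the 20768 pooled peaks. The relaxed lists held 29587 and 25172 peaks. Read depth is unknown. Intervals cover counting error only.

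Genes and 5' ends came from Ensembl release 115 (WBcel235), sequences from the RefSeq genome of that assembly. Where windows of several genes held a summit, each gene was credited. Shares have exact Clopper-Pearson 95% intervals. Replicate peaks matched by 1 bp of overlap. Replicate shares used each replicate's 2987 strongest peaks or its whole relaxed list. Motifs were searched within 75 bp of a summit. Python 3.11.15 was used, with matplotlib 3.10.9, scipy 1.17.1, pandas 2.3.3 and numpy 2.4.6. The assignment was tested on simulated data. With 1 group there was no test.

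Named are all genes with an optimal summit, up to 3 further genes of each family with the strongest pooled promoter summit, genes with no pooled summit, and genes of the other lists with an optimal promoter summit. Other genes named were chosen after their values were seen. The genes and lists were chosen with earlier results of these data known. In 1 of the 3 other lists, 20 of 22 symbols matched. Alternatives changed the window, the overlap rule, the 5' ends, the list length, the signal limit and the replicate. The lists on ce10 were used only for the length of the optimal list.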

Additional observations from a re-analysis of the deposited data

How the results depend on the processing

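The count of channel genes with an optimal promoter summit was 4. It fell to 2 with only the outermost 5' end of each gene, since the slo-2 and kcnl-2 summits are at internal ends, and to 1, twk-2, with only optimal peaks above the median signal. With single replicates it was 4 to 5. The pooled promoter count of 28 became 18 with a window of 1000 bp upstream and 250 bp downstream (28.6%, all genes 33.6%) and 17 with pooled peaks above the median signal (27.0%, all genes 27.1%). With single replicates it was 33 to 34. With only the outermost 5' end it was 19, and the share then fell below that of all genes (30.2%, all genes 39.2%) where it had stood above it (44.4%, all genes 41.8%). In the pooled list the share of twk genes was below that of the other families in every setting. There were 6 twk and 12 other genes for the smaller window, 5 and 12 above the median signal, and 9 and 10 with the outermost 5' end. The exact intervals of the families in the pooled list overlapped with the outermost 5' end (9.80 to 35.3% and 28.9 to 75.6%), with any overlap of the peak (24.4 to 54.5% and 54.4 to 93.9%) and with replicate 1 alone (28.3 to 59.0% and 54.4 to 93.9%). They did not overlap in the other pooled settings. In the optimal list the order changed in some settings. The outermost 5' end gave 2 twk genes and 0 others, and signals above the median gave 1 and 0. The optimal intervals of the families overlapped in every setting. The count of 1 gene with an optimal summit inside it became 4 when promoter windows were included, and was 1 to 1 with single replicates. Any overlap of the peak gave 6 optimal promoter genes, adding slo-1 and twk-21, and 32 pooled promoter genes, and a list as long as the ce10 optimal list gave 5, adding kvs-3. No paired analysis was possible because there is 1 group. The optimal counts rest on few genes, the relaxed lists include background, and without read counts no depth could be set against a missing peak.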

Other observations

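tRNA genes were annotated within 250 bp of 7 of the 116 pooled summits of potassium channel genes outside the optimal list (6.03%), against 1.10% of all such peaks, and snoRNA genes of 0, against 0.467%. These summits were at kvs-3, twk-10, twk-13 and twk-21, and the distance was chosen after values had been seen. Pooled summits that share a tRNA gene, as at kvs-3 and at twk-13, were each counted and not merged. The part of tRNA genes in the pooled shares was not tested. Of the 63 channel genes 18 (28.6%) lie on chromosome X, against 13.7% of all protein-coding genes, and 19 (30.2%) on chromosome V, against 25%, with no test made. A pooled promoter summit was found at 6 of the channel genes on X (33.3%) and 10 on V (52.6%), against 43.1% and 33.4% of all genes there. The median share of G and C in the 151 bases at the pooled-only summits was 37.4%, against 39.7% for all such peaks, and 43.7% at the 5 optimal summits, against 45%.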
